A study of Mus musculus with 2 samples.

Results

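Mature dendritic cells that carry Ccr7 were picked out of the CD45+ leukocytes of B16F10-OVA tumours. A cell was a member when it held at least 200 genes, at least 500 unique molecular identifiers (UMIs, one for each captured RNA molecule) and under 10% mitochondrial UMIs. It also had to hold at least 1 UMI of Ccr7, at least 1 of Fscn1 and at least 1 of Ccl22, Il4i1 or Cacnb3, at most 2 UMIs of C1qa, C1qb and C1qc together, and 0 UMIs of Cd3e and Cd79a. In all, 204 of 14809 filtered cells met the rule, 154 of 7134 in the PBS library and 50 of 7675 in the UDSP-Hep library. The members were chosen by these measured values, so the levels of the genes in the rule are given as a description.

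B16F10-OVA is a line of mouse melanoma cells engineered to make ovalbumin as a model antigen, and it was grown under the skin of mice. The mice were injected at days 10, 12, 14 and 16 with PBS, a saline buffer, or with UDSP-Hep, an agent not described in the labels. At day 19 the leukocytes of 3 tumours per group were sorted on CD45, a surface protein of leukocytes, and about 10000 cells per group were loaded for droplet sequencing on the 10x Genomics platform. Both groups bore the same graft, and no strain, sex or age of the mice is given in the labels. The cells of the 3 tumours were pooled in 1 library, so neither group was replicated, and differences between the libraries are described without a test. Values are set beside intervals at 95% that cover counting error only, not differences between mice.

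When a conventional dendritic cell matures, it stops sampling its surroundings and brings Ccr7, the receptor for Ccl19 and Ccl21, to its surface, which guides it through lymph to the T cell zone of a lymph node. It reorganises its cytoskeleton with fascin (Fscn1), displays costimulatory and inhibitory ligands for T cells, secretes Ccl22 and Ccl17 toward cells that carry Ccr4, and holds antigen already loaded on MHC molecules. Both NF-kappaB pathways act in this programme: the canonical one, which frees Rela and Rel from inhibitors such as Nfkbia, and the alternative one, in which Map3k14 leads to active Relb and Nfkb2. In tumours such cells are known to carry immunoregulatory ligands such as Cd274 and Cd200 beside the genes of maturation.

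Promoters are shown for Nfkb2, Nfkbia and Tnfaip3 of the NF-kappaB list, and for Tnfrsf9, which was lower in the UDSP-Hep members. For each gene a start that held a match was taken, so the presence of a match was fixed by the choice. Traf1, Birc2 and Map3k14 of the same list were high in the members and had no match at any start. Each line gives the 250 bases before the RefSeq transcription start (GRCm38.p6), 5′ to 3′ on the strand of the gene, and capitals mark matches to the NF-kappaB consensus on either strand.
Nfkb2, chr19:46304487-46304736, plus strand: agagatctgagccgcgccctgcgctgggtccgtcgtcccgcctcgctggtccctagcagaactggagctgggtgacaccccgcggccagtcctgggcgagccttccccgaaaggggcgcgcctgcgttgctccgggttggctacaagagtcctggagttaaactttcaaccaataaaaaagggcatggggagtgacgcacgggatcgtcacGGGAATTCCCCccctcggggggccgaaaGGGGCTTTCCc
Nfkbia, chr12:55492648-55492897, minus strand: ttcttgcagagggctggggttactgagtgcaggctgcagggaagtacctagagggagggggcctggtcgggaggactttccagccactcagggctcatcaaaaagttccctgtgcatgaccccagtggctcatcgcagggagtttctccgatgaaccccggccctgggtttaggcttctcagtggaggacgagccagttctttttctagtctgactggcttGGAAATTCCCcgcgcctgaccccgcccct
Tnfaip3, chr10:19015411-19015660, minus strand: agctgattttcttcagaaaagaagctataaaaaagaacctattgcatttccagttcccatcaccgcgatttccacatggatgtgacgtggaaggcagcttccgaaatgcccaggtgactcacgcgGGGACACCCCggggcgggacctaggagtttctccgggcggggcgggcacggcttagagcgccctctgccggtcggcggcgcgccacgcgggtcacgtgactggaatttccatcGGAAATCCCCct
Tnfrsf9, chr4:150927749-150927998, plus strand: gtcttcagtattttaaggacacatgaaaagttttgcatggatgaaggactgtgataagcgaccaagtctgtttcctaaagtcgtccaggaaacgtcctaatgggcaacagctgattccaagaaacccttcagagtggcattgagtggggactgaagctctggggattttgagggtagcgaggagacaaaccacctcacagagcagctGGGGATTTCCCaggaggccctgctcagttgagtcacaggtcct
The stretch of Nfkb2, the precursor of p52 in the alternative pathway, held 2 separate runs that match, as did that of Tnfaip3, which encodes the NF-kappaB inhibitor A20. Those of Nfkbia, the inhibitor IkappaB-alpha, and of Tnfrsf9, the costimulatory receptor 4-1BB, held 1 each. Nfkb2, Tnfaip3 and Tnfrsf9 have other annotated starts besides the one shown. A match was found for 9 of 18 genes of the NF-kappaB list that the table covers, against 8.23% of the 27025 genes in it, counting a gene with a match at any of its starts. Over single promoters of that length the share was 7.25% of 32851. Other gene lists also lay above 8.23%, such as heat shock with 4 of 12 genes and type I interferon with 6 of 19. Below it were capture receptors (1 of 19), cDC1 origin (1 of 14), oxidative phosphorylation (1 of 14) and lipid genes (1 of 13). A share above that of all genes was therefore not particular to the NF-kappaB list. A match is a likeness of letters and was not tied to binding of a factor in these cells.

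Ccr7, Fscn1, Ccl22, Il4i1 and Cacnb3 were not called different between the libraries. Levels are UMIs of a gene per 1000000 UMIs of all members of a library (CPM). Ccr7, on the minus strand of chromosome 11 at 99144196 to 99155077 (GRCm38), stood at 3330 CPM in the PBS members and 3871 CPM in the UDSP-Hep members. Per cell, the lowest, median and highest Ccr7 values were 2.34, 34.3 and 94.9 UMIs per 10000 in PBS, and 0.91, 44.5 and 156 per 10000 in UDSP-Hep, so the ranges overlapped almost entirely. Fscn1, the actin-bundling protein of dendritic extensions, was at 2055 and 2598 CPM. Ccl22 was at 1721 and 1868 CPM, Il4i1, a secreted amino acid oxidase, at 1126 and 1162 CPM, and Cacnb3, a calcium channel subunit, at 811 and 730 CPM.

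The edges of the rule differed in how many cells lay near them. Cells with Ccr7 and at least 1 of Ccl22, Il4i1 and Cacnb3 but no Fscn1 numbered 72 in PBS and 18 in UDSP-Hep, and those with Fscn1 but no Ccr7 numbered 11 in each. No member had exactly 1 Ccr7 UMI, and 6 PBS and 1 UDSP-Hep members had exactly 1 Fscn1 UMI. C1q UMIs summed to 0 in 132 PBS and 38 UDSP-Hep members, to 1 in 18 and 9, and to 2 in 4 and 3. The cells kept out by the C1q limit alone held 5, 7, 32 and 145 C1q UMIs in PBS and 19, 25 and 88 in UDSP-Hep. Another 20 PBS and 13 UDSP-Hep cells were left out only because they held a Cd3e or Cd79a UMI.

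The members were set beside markers of other cell types. Cd3e is among the T cell markers, Cd79a among the B cell markers, and C1qa, C1qb and C1qc among the macrophage markers. The rule limits these genes, so those sums are low in part by the choice of cells. The members summed 2029942 UMIs in PBS and 639610 in UDSP-Hep, with medians of 12776.5 and 12323 UMIs per cell and median mitochondrial shares of 1.47% and 1.45%. The whole libraries held 74685827 and 64241224 UMIs, and 25 barcodes occurred in both, none of them a member in both. T cell markers summed to 11.3 and 14.1 CPM in the members, B cell markers to 6.9 and 7.82 CPM and melanoma markers to 3.94 and 1.56 CPM, against 750 and 725 CPM, 28 and 38.4 CPM, and 6.58 and 7.12 CPM in the other cells of each library. Siglecf, Prg2 and the other 3 eosinophil markers were at 0 in PBS.

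Markers of other myeloid cells and of NK cells were not absent, and they were higher in the UDSP-Hep members. The 10 macrophage markers summed to 256 CPM in PBS and 472 CPM in UDSP-Hep members, the 8 monocyte markers to 643 and 919 CPM, the 7 neutrophil markers to 25.1 and 269 CPM and the 6 NK markers to 38.9 and 258 CPM. In the other cells of each library neutrophil markers were at 422 and 1857 CPM and NK markers at 801 and 2008 CPM, also higher in UDSP-Hep. Macrophage markers there were at 4102 and 3704 CPM and monocyte markers at 5967 and 5065 CPM. Whether the levels in the members follow the make-up of the library was not tested. No macrophage, monocyte or NK marker was at 0 in the members of either library, and 1 neutrophil marker was at 0 in each. Single cells held much of this: 1 UDSP-Hep member had 95 of the 172 neutrophil marker UMIs and 1 had 70 of the 165 NK marker UMIs. In all, 31 of 154 PBS members (20.1%) and 16 of 50 UDSP-Hep members (32%) held 5 or more UMIs of macrophage, monocyte, neutrophil, NK, T or B cell markers. Expression results are therefore also given without these cells, a choice made after the values had been seen, which leaves 123 and 34 members with 1464908 and 389368 UMIs.

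Mature Ccr7 dendritic cells were a smaller share of the leukocytes in the UDSP-Hep library. They made up 2.16% of filtered cells in PBS (154 of 7134, exact Clopper-Pearson interval 1.83% to 2.52%) and 0.651% in UDSP-Hep (50 of 7675, 0.484% to 0.858%), a ratio of 0.302 (Katz log interval 0.22 to 0.415). Cells of the cDC1 gate, the cross-presenting lineage of Xcr1 and Clec9a, showed nearly the same ratio, 0.298 (0.203 to 0.438), with 106 and 34 cells. Cells of the cDC2 gate, which carry Cd209a, showed a ratio of 0.573 (0.483 to 0.68), with 334 and 206 cells. The share of the members depends on the rest of the library: the NK gate held 340 PBS and 1106 UDSP-Hep cells, and the neutrophil gate 39 and 559.

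Counted among gated dendritic cells alone, the difference was smaller. Members were 25.9% of 594 gated dendritic cells in PBS (22.4% to 29.6%) and 17.2% of 290 in UDSP-Hep (13.1% to 22.1%), a ratio of 0.665 (0.499 to 0.886). With the NK and neutrophil gates taken out of the denominator the ratio among leukocytes was 0.364 (0.265 to 0.5). With every cell thinned to 1000 UMIs before the rule was applied, 108 PBS and 41 UDSP-Hep members remained, with a ratio of 0.359. Without the cells that hold markers of another type the ratio was 0.257 (0.176 to 0.375).

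**Figure D1:**
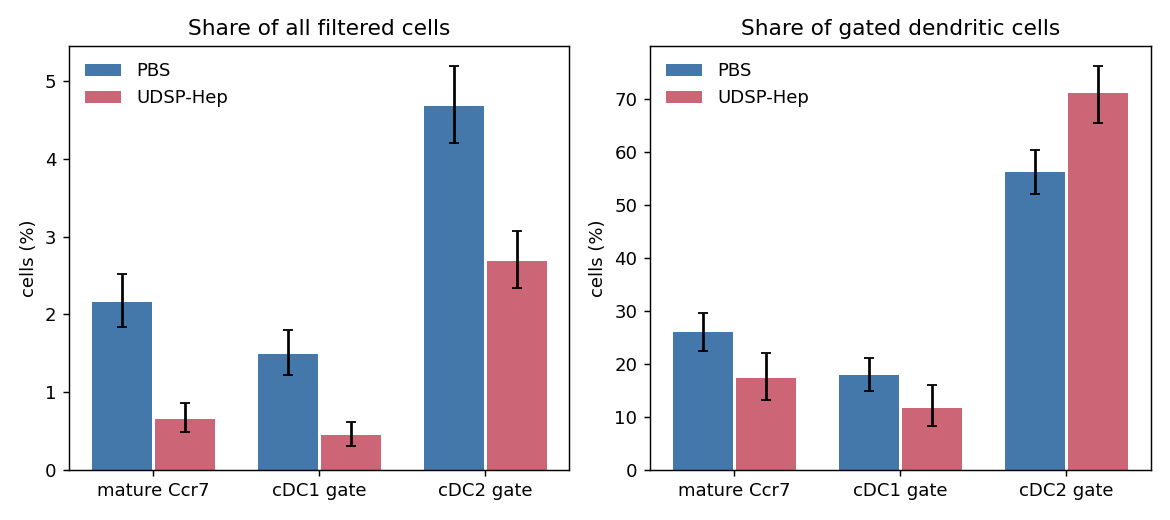
Shares of the mature Ccr7, cDC1 and cDC2 gates in each library, in percent of all filtered cells (left) and of gated dendritic cells (right), with bars from 0 and exact 95% binomial intervals for counting error. Members were 2.16% of filtered cells in PBS and 0.651% in UDSP-Hep, and 25.9% and 17.2% of gated dendritic cells.

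Beside cDC2-gated cells of the same library, the members showed a broad maturation profile. A gene was counted as higher or lower when its CPM ratio was past 1.5 in that direction with an interval that leaves out equality, in both libraries, among genes with at least 20 summed UMIs. By this rule 10.6% of 10465 genes were higher in members and 16.6% were lower. The gates were set on marker genes, so these values describe the cells and test nothing. All 37 genes of the maturation signature were higher in both libraries, with a median log2 ratio of 3.86 in each, beside medians over all genes of -0.24 and -0.22. The signature collects genes already known from such cells.

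The genes that stood farthest above the cDC2 gate were nearly absent from it. Adcy6, an adenylate cyclase, was at 233 CPM in PBS members and 285 CPM in UDSP-Hep members, against 1.54 and 0.795 CPM in the cDC2 gate. Serpinb6b, a serine protease inhibitor, was at 1458 and 1115 CPM against 12.5 and 23.9 CPM. Zmynd15 was at 228 and 394 CPM against 2.42 and 2.39 CPM, and Nudt17 at 100 and 152 CPM against 0.22 and 0.398 CPM. Tmem150c at 97 and 95.4 CPM, Lad1 at 61.1 and 51.6 CPM and Arpin, an inhibitor of the Arp2/3 complex, at 72.9 and 50 CPM had no UMI in the cDC2 gate of either library. Slco5a1, Apol7c, Gm13546, Ikzf4, Strip2, Synpo2, Pakap and Il12b completed the 15 highest.

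The 15 lowest genes were low or absent in the members. Cd209e, a lectin receptor, had 0 UMIs in the members of both libraries against 152 and 201 CPM in the cDC2 gate. E-cadherin, Cdh1, was at 9.85 and 6.25 CPM against 231 and 227 CPM. Ccl9 was at 36 CPM in the members of each library against 498 and 442 CPM. Ms4a6c was at 85.7 and 114 CPM against 780 and 956 CPM. March1, the ubiquitin ligase that removes MHC class II and Cd86 from the surface of resting cells, was at 3.94 and 6.25 CPM against 75.1 and 94.2 CPM. The others were Cd300a, Ifitm6, Id3, Dok2, Ms4a6d, Bcl11a, Ckb, Kmo, Alox5ap and Qpct.

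Most NF-kappaB genes were higher in the members than in the cDC2 gate. Of the 20 genes of the list 16 were higher than in the cDC2 gate in both libraries and 0 were lower, with median log2 ratios of 1.46 in PBS and 1.48 in UDSP-Hep. Relb was at 448 and 505 CPM against 44.7 and 46.9 CPM in the cDC2 gate. Birc2, which restrains Map3k14, was at 590 and 543 CPM against 52.8 and 55.3 CPM. Map3k14 itself was at 415 and 346 CPM against 111 and 90.7 CPM. Traf1, an adaptor that signals for survival, was at 821 and 754 CPM against 137 and 150 CPM. Nfkb2 was 3.13 and 3.15 times its level in the cDC2 gate. Tnfaip3 was not counted, with ratios of 0.781 and 1.21.

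Most genes of the costimulation list were higher than in the cDC2 gate, while those of immune regulation went both ways. Of 14 measured genes of the costimulation list 10 were higher than in the cDC2 gate in both libraries and 2 were lower. Cd83 was at 918 and 1074 CPM against 388 and 528 CPM, and Cd40, the receptor for CD40 ligand on T cells, at 177 and 258 CPM against 85 and 102 CPM. Tnfrsf4, or OX40, was at 191 and 109 CPM against 5.28 and 4.77 CPM. Of 16 immune regulation genes 7 were higher and 5 lower. Cd274, which encodes PD-L1, was at 670 and 852 CPM against 183 and 199 CPM. Cd200, a ligand that restrains myeloid cells, was at 591 and 589 CPM against 6.38 and 15.1 CPM. Socs2, a regulator of cytokine signalling, was at 620 and 716 CPM against 26.4 and 17.1 CPM.

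Most genes for capturing antigen were low. In the list of capture receptors 13 of 18 were lower and 1 was higher. Mrc1, the mannose receptor, was at 30.5 and 18.8 CPM against 376 and 288 CPM in the cDC2 gate. The exception was Ly75, also called DEC-205, at 226 and 239 CPM against 5.94 and 7.55 CPM. Of 19 Toll-like receptor and innate sensor genes 7 were lower and 1 was higher. In the type I interferon list 20 of 24 genes were lower and 0 higher, among them Ifit1, at 33 and 20.3 CPM against 115 and 122 CPM. Of 21 glycolysis and hypoxia genes 16 were lower and 0 higher.

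Presentation genes went in different directions by class. Of 20 MHC class I genes 10 were higher and 3 lower, and H2-K1 was at 2904 and 3721 CPM against 1707 and 2108 CPM. Of 15 MHC class II genes 8 were lower and 1 was higher. H2-Ab1, the class II beta chain, was at 1955 and 3316 CPM against 6537 and 6667 CPM. H2-DMb1, a subunit of the peptide exchange factor, was at 54.7 and 130 CPM against 720 and 746 CPM. The exception was H2-Eb2, at 136 and 280 CPM against 6.38 and 3.18 CPM.

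**Figure D2:**
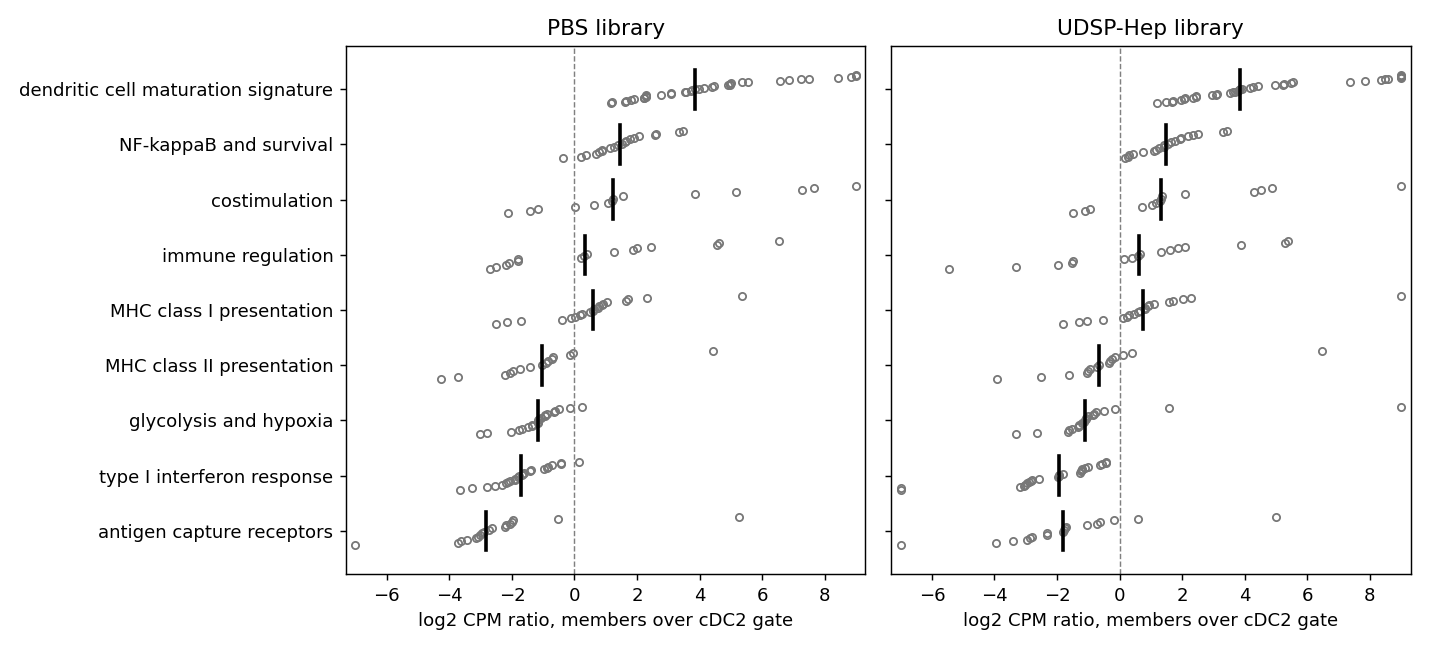
Log2 ratio of CPM in members over the cDC2 gate for the genes of 9 lists, in the PBS (left) and UDSP-Hep (right) library; each circle is 1 gene, the bars are medians, and circles at the edges of the scale stand for ratios past it or with 0 UMIs on one side. The maturation signature lies wholly above equality in both panels, with medians of 3.86, and most type I interferon and capture receptor genes lie below it.

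The members were not uniform in their class II genes. H2-Aa, H2-Ab1, H2-Eb1 and Cd74 together had a lowest, median and highest value of 2.97, 73.2 and 587 UMIs per 10000 in PBS members, and 1.8, 125 and 807 per 10000 in UDSP-Hep members. At a level of 100 per 10000, which was chosen after the values had been seen, 44.8% of PBS members (36.8% to 53%) and 56% of UDSP-Hep members (41.3% to 70%) lay at or above it. Near that level, between 80 and 120 per 10000, lay 11 PBS and 3 UDSP-Hep members. It marks a range and not a type.

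Members at low class II carried more of the chemokine Ccl5. Ccl5, which attracts T cells, was at 6083 CPM in the 85 PBS members under 100 per 10000 and at 960 CPM in the 69 members at or over it. In UDSP-Hep the values were 5944 CPM in 22 members and 1848 CPM in 28. Il15ra, which presents Il15 to NK and T cells, was at 315 against 116 CPM in PBS and 347 against 179 CPM in UDSP-Hep. Fscn1 was at 2687 against 1559 CPM in PBS and 3968 against 2005 CPM in UDSP-Hep. Il4i1 was the other way round, at 707 against 1455 CPM in PBS and 786 against 1324 CPM in UDSP-Hep. Ciita, the master regulator of class II transcription, was at 4.49 against 119 CPM in PBS and 15.5 against 188 CPM in UDSP-Hep.

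Over single members, Spearman's rho between Ccl5 and the class II sum was -0.61 in PBS (154 cells) and -0.54 in UDSP-Hep (50 cells). It was -0.50 in each library for Il15ra and 0.51 and 0.58 for Ciita. Total UMIs also went with the class II sum, with rho of 0.44 and 0.47. Members at or over 100 per 10000 had median totals of 15567 and 14094.5 UMIs, and those under it 9646 and 8419. The cells of a library share its depth and free RNA, and the part of depth in these relations was not tested.

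**Figure D3:**
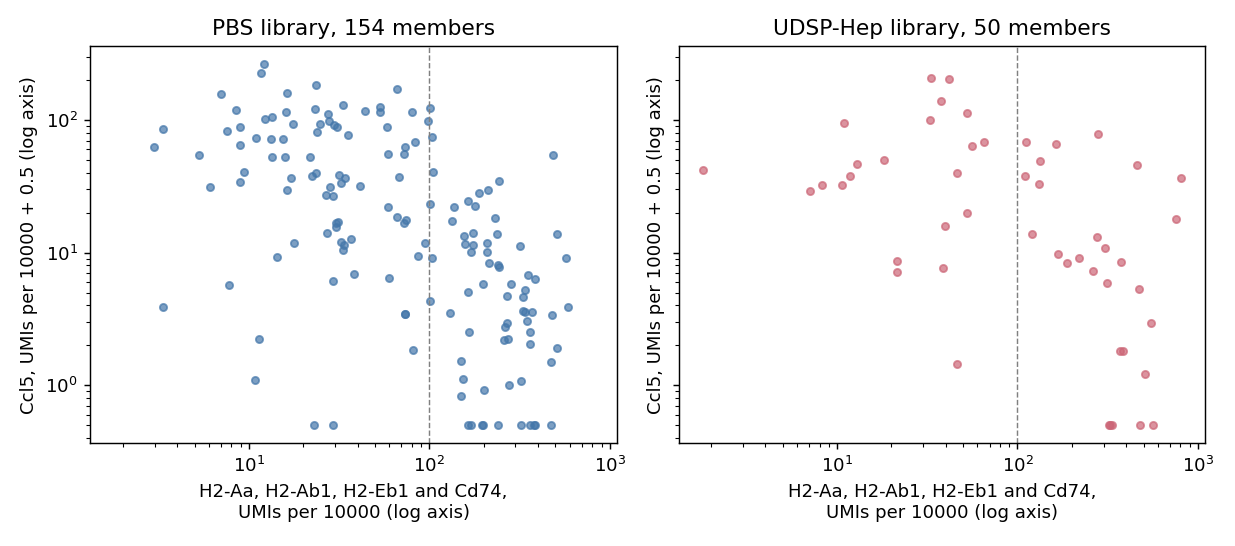
Each point is 1 member, with the summed class II UMIs per 10000 on the x axis and Ccl5 UMIs per 10000 plus 0.5 on the y axis, both on log axes, and a dashed line at 100 per 10000. High Ccl5 values sit to the left of the line in both libraries, where its CPM was 6083 in PBS and 5944 in UDSP-Hep.

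Il12b, the shared subunit of Il12 and Il23, came from a minority of members. It was found in 20 of 154 PBS members and 9 of 50 UDSP-Hep members, and its 478 UMIs in members stood against 2 in all cDC2-gated cells. One member held 87 of the 278 PBS UMIs and another 127 of the 200 UDSP-Hep UMIs. Irf8, a factor of the cDC1 lineage, was at 1995 CPM in PBS members with Il12b and 874 CPM in those without. In UDSP-Hep it was at 2326 and 993 CPM. Ccl22 was higher there too, at 2930 against 1533 CPM in PBS and 3529 against 1346 CPM in UDSP-Hep.

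Lineage markers were found in a minority of the members. Xcr1 or Clec9a, without Cd209a, Mgl2 or Clec10a, was found in 5 PBS and 4 UDSP-Hep members. The latter 3 genes, without the former, were found in 45 PBS and 9 UDSP-Hep members. Neither set was found in 103 PBS and 36 UDSP-Hep members. Genes used by the gates aside, 3 of 14 genes of the cDC1 origin list were higher than in the cDC2 gate in both libraries and 5 were lower. In the cDC2 origin list 1 of 13 was higher and 6 were lower. The cDC1 factors Irf8 and Batf3 were above the cDC2 gate, Irf8 at 1025 and 1312 CPM against 199 and 245 CPM, and Batf3 at 322 and 342 CPM against 79.9 and 77.9 CPM. Wdfy4, also of the cDC1 list, was below it, at 26.6 and 48.5 CPM against 152 and 170 CPM. Irf4, a factor of the cDC2 lineage, was at 35.5 and 76.6 CPM against 64.3 and 112 CPM. Between the libraries Irf4 had a ratio of 2.16 (1.47 to 3.15), and Irf8 was called only without the cells that hold other markers, at 1.75 (1.59 to 1.93).

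Between the libraries, within the members, 655 of 7731 measured genes were called higher in UDSP-Hep and 260 lower, which is 8.47% and 3.36%. The call needs a CPM ratio of at least 1.5, or of at most its inverse, with an interval that leaves out equality. Leaving out the cells that hold markers of another type, 475 of 6676 genes were higher and 279 lower, and 284 and 131 of these calls were made both ways. Division by the median gene instead of total UMIs left 509 higher and 366 lower, so the share of higher calls went from 71.6% to 58.2%. The median log2 ratio of all measured genes was 0.08.

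Most genes of the maturation signature were not called between the libraries. Of its 36 measured genes 6 were called higher and 1 lower in UDSP-Hep, with a median log2 ratio of 0.10. Over all measured genes 8.47% were higher and 3.36% lower, with a median of 0.08. Without the cells that hold other markers 8 of 36 were higher and 1 lower, with a median of 0.21. In that setting 475 of all 6676 measured genes were higher and 279 lower, with a median of 0.02. Zmynd15 was at 228 CPM in PBS and 394 CPM in UDSP-Hep, a ratio of 1.73 (1.48 to 2.02). Dnase1l3, a secreted nuclease, was at 15.8 and 128 CPM, a ratio of 8.13 (5.34 to 12.6), and at 12.3 without the cells that hold other markers. Synpo2 and Slco5a1 had ratios of 2.34 and 2.02. Fabp5 was the lower gene. The most abundant genes of the signature that were not called were Cst3, an inhibitor of cathepsins, at 14758 and 11806 CPM, and Tmem123 at 3198 and 3071 CPM.

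Nfkbia and Tnfaip3, which NF-kappaB induces and which restrain it, were higher in the UDSP-Hep members, while the NF-kappaB subunits were not called. Nfkbia was at 687 CPM in PBS and 1255 CPM in UDSP-Hep, a ratio of 1.83 (1.67 to 1.99), and Tnfaip3 at 172 and 430 CPM, a ratio of 2.5 (2.13 to 2.94). The ratios were 1.69 (1.51 to 1.88) and 2.14 (1.73 to 2.64) without the cells that hold other markers. Bcl2l1, which encodes the survival protein Bcl-xL, was at 22.7 and 42.2 CPM, and Nfkbib, another inhibitor, was lower at 189 and 125 CPM, a call that was lost without those cells (0.741). The other 16 of 20 genes were not called, among them Rel at 946 and 968 CPM and Relb at 448 and 505 CPM. Without the cells that hold other markers 6 of 20 were higher and 0 lower, and 3 of these were higher in both settings. Cflar, at 1.69 (1.44 to 1.98), and Birc3, at 1.74 (1.45 to 2.08), were called only without those cells. Tnfaip3 was also higher in the other dendritic gates, with a ratio of 1.62 (1.48 to 1.77) in cDC2 and 2.82 (2.32 to 3.41) in cDC1. Its log2 ratio in members was 0.63 above that of the cDC2 gate (0.37 to 0.89), and the difference from the cDC1 gate was -0.17 (-0.53 to 0.18).

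Class II genes were higher in the UDSP-Hep members. Of 14 measured genes 8 were called higher and 0 lower, with a median log2 ratio of 0.62. H2-Ab1 was at 1955 CPM in PBS and 3316 CPM in UDSP-Hep, a ratio of 1.7 (1.61 to 1.79). H2-Eb1 was at 2949 and 4434 CPM, a ratio of 1.5 (1.44 to 1.57), and Ciita at 69 and 136 CPM, a ratio of 1.97 (1.49 to 2.6). H2-Oa and H2-Ob, the modulators of peptide exchange, had ratios of 2.32 and 3.08. The invariant chain, Cd74, was at 7221 and 9606 CPM and not called. With the cells that hold other markers left out, 10 of 14 were higher, including all 8, with a median of 0.72. These cells held 41.1% of the H2-Ab1 UMIs in PBS and 54.8% in UDSP-Hep. Among cDC2-gated cells, where 6.44% of 9861 measured genes were higher and 3.23% lower, 1 of 15 class II genes was higher and the median was 0.03. The log2 ratio of H2-Ab1 was 0.73 larger in members than there (0.65 to 0.81), and that of Ciita 1.01 larger (0.61 to 1.42). Against the cDC1 gate the differences were 0.87 (0.78 to 0.95) and 1.46 (1 to 1.93).

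Class II is also the axis along which members varied within a library, with a median sum of 73.2 per 10000 in PBS and 125 in UDSP-Hep. The per-cell ranges overlapped almost wholly, and the median H2-Ab1 value was 3.46 UMIs per 10000 in PBS and 4.84 in UDSP-Hep. Whether the ratio reflects more RNA per cell or more cells in the upper range was not tested.

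Fewer class I and interferon-gamma genes were called. In MHC class I presentation 5 of 20 genes were called higher and 0 lower, among them Calr, a chaperone of the peptide-loading complex, at 183 and 347 CPM, which was not called without the cells that hold other markers (1.44), and Nlrc5, the regulator of class I transcription, at 132 and 200 CPM. H2-K1 and B2m were not called. In the interferon-gamma list 5 of 21 were higher and 0 lower, among them Irf1 at 280 and 475 CPM, a ratio of 1.7 (1.47 to 1.96), and Tgtp2, an interferon-induced GTPase, at 17.2 and 32.8 CPM, a ratio of 1.9 (1.05 to 3.36). Gbp5, a guanylate-binding protein, was at 191 and 299 CPM. Leaving out the cells that hold other markers, 9 of 20 were higher, 4 of them among the former 5.

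The type I interferon list gave no stable direction. Of 19 genes 1 was higher and 3 were lower, with a median log2 ratio of -0.44. Rsad2 was at 59.6 CPM in PBS and 25 CPM in UDSP-Hep, and 61 of its 121 PBS UMIs came from 1 cell. The median was 0.34 over the 12 genes measured without the cells that hold other markers, and with the highest doublet scores removed it was 0.06.

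Immediate early genes, which turn on within minutes of a stimulus or of tissue handling, were higher in the UDSP-Hep members as a group. Of 23 genes 15 were called higher and 0 lower, with a median log2 ratio of 0.83. Nr4a1, an orphan nuclear receptor, was at 46.8 and 236 CPM, a ratio of 5.04 (3.88 to 6.59). Dusp2, a phosphatase of MAP kinases, was at 56.2 and 260 CPM, a ratio of 4.62 (3.62 to 5.92). Egr1 was at 18.7 and 211 CPM, with 56 of 135 UDSP-Hep UMIs in 1 cell. Cells that hold other markers had 89.5% of its UMIs in PBS and 75.6% in UDSP-Hep, and without them its ratio went from 11.3 (7.82 to 16.6) to 31 (11 to 121), on 4 and 33 UMIs. Dusp1, another such phosphatase, was at 959 and 1862 CPM, a ratio of 1.94 (1.8 to 2.09). With those cells left out, 10 of 21 immediate early genes were higher, all among the former 15, with a median of 0.57. The cDC2 gate leaned the same way, with 9 of 23 higher and a median of 0.40. The log2 ratio of Nr4a1 was 1.24 larger in members (0.86 to 1.63). The part of tissue handling was not tested.

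Heat shock and glycolysis genes leaned the other way. Hspa1a, an inducible chaperone, was at 154 CPM in PBS and 48.5 CPM in UDSP-Hep, a ratio of 0.314 (0.21 to 0.455), and Hspa1b at 191 and 70.4 CPM. The ratio of Hspa1b went from 0.369 (0.265 to 0.503) to 0.606 (0.428 to 0.839) without the cells that hold other markers. The other 12 of 14 heat shock genes were not called. Hspa1a was at 484 and 74.4 CPM in the cDC2 gate. Reads of this near-identical pair can be assigned to either gene. Of 20 glycolysis and hypoxia genes 3 were lower, Gapdh at 1927 and 1245 CPM, Tpi1 at 254 and 144 CPM and Bnip3 at 51.7 and 29.7 CPM, with a list median of -0.41. Bnip3 was not called without the cells that hold other markers (0.654). That list had 6 of 21 lower in the cDC2 gate, with a median of -0.46.

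Chemokine genes differed in both directions. Ccl24, which attracts eosinophils through Ccr3, was at 832 CPM in PBS (793 to 873) and 17.2 CPM in UDSP-Hep (8.59 to 30.8), a ratio of 0.0207 (0.0103 to 0.0371). Its highest cell held 156 of 1689 UMIs in PBS and 3 of 11 in UDSP-Hep. Ccl24 RNA was also found in NK-gated cells, at 247 and 23.8 CPM, and in C1q phagocytes, at 3137 and 858 CPM. Thinned to 2000 UMIs per cell, 32.7% of PBS members and 4.28% of NK-gated cells held a Ccl24 UMI, and in UDSP-Hep 2% and 1.87%. Before thinning the shares were 50.6% and 12.4% in PBS, at median depths of 12776.5 and 4589 UMIs, and 16% and 5.61% in UDSP-Hep, at 12323 and 4465. The thinned share in UDSP-Hep members was close to that of the NK-gated cells. The part of free RNA in the Ccl24 of either library was not tested. The log2 ratio was 4.15 lower in members than in the cDC2 gate (-5.01 to -3.29).

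Ccl17, the partner of Ccl22 at the receptor Ccr4, was at 215 and 441 CPM, a ratio of 2.05 (1.76 to 2.39). A single UDSP-Hep cell held 128 of its 282 UMIs, and without the top cell of each library the log2 ratio was 0.35. Members with Ccl17 also carried more Ccl22, at 2712 against 866 CPM in PBS and 3440 against 1039 CPM in UDSP-Hep. Ccl5 was not called, at 3210 and 3086 CPM, nor was Cxcl16, the ligand of Cxcr6 on T cells, at 901 and 1046 CPM.

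Most UMIs of Cxcl2 and Ccl4 in UDSP-Hep lay in the cells with other markers. Cxcl2, a neutrophil chemoattractant, was at 31.5 and 380 CPM, a ratio of 12.1 (9.12 to 16.1). One UDSP-Hep cell held 156 of its 243 UMIs, and members with other markers held 25% of its UMIs in PBS and 90.9% in UDSP-Hep; without those members the log2 ratio was 0.79 and it was not called. For Ccl4 71.8% of the PBS and 90.8% of the UDSP-Hep UMIs lay there, and its log2 ratio went from 1.69 to 0.33, no longer called. Cxcl10, a ligand of Cxcr3 that interferon induces, went the other way: 57.1 and 141 CPM with all members, a ratio of 2.46, and 12.3 and 211 CPM without them, a ratio of 17.1 (10.2 to 30.3), with 70 of 90 UDSP-Hep UMIs in 1 cell. Xcl1, which is made by NK cells, had 0 UMIs in PBS and 28 in UDSP-Hep, 24 of them in 1 cell and all in members with other markers. With 3 UMIs put in place of the 0 in PBS the ratio of Xcl1 would be 29.6, which is not a lower bound.

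Of 9 cytokine genes 5 were higher and 1 lower, with a median log2 ratio of 1.04. That median was 0.25 without the cells that hold other markers, 0.28 without the top cell of each gene and 0.37 with a C1q sum of 0. Il1b was at 668 CPM in PBS and 1634 CPM in UDSP-Hep, a ratio of 2.44 (2.25 to 2.65). Members with other markers held 22.9% of its UMIs in PBS and 58.6% in UDSP-Hep, and without these the values were 714 and 1112 CPM, a ratio of 1.56 (1.39 to 1.74). Il1b was higher in the other dendritic gates too, with ratios of 2.24 (2.14 to 2.34) in cDC2 and 3.25 (2.99 to 3.53) in cDC1. Tnf had 4 and 30 UMIs, at 1.97 and 46.9 CPM, with 12 of the 30 in 1 cell. Il12b was at 137 and 313 CPM, a ratio of 2.28 (1.89 to 2.75). The ratio was 3.56 (2.87 to 4.4) without the cells that hold other markers, while without the top cell of each library the log2 ratio went from 1.19 to 0.28. Ltb and Ebi3, a subunit of Il27, had ratios of 2.94 and 2.05, and that of Ebi3 was 5.02 (2.61 to 9.81) without the cells that hold other markers. Il6 was lower, at 68 and 43.8 CPM, and was not called without the cells that hold other markers (0.745).

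Tnfrsf9 and Tnfrsf4, costimulatory receptors of the TNF family, were lower in UDSP-Hep. Tnfrsf9 was at 293 CPM in PBS (270 to 318) and 139 CPM in UDSP-Hep (112 to 171), a ratio of 0.475 (0.376 to 0.594). It was 0.397 (0.295 to 0.525) without the cells that hold other markers. Per cell, its lowest, median and highest values were 0, 1.18 and 29 UMIs per 10000 in PBS and 0, 0.783 and 9.67 in UDSP-Hep. In the cDC2 gate Tnfrsf9 was at 20.2 and 32.6 CPM, and the log2 ratio in members was 1.76 lower than there (-2.3 to -1.23). Its ligand Tnfsf9 was at 25.6 and 51.6 CPM, a ratio of 2.01 (1.26 to 3.18), and 4.58 (2.54 to 8.32) without the cells that hold other markers. Tnfrsf4 was at 191 and 109 CPM, a ratio of 0.574 (0.439 to 0.742), which became 0.688 (0.514 to 0.909) and was not called without those cells. In the costimulation list as a whole 3 of 13 were higher and 3 lower, and Cd80, Cd86, Cd40 and Cd83 were not called. Leaving out those cells, 5 of 12 were higher and 2 lower, and Cd40 was called higher with a ratio of 1.8 (1.44 to 2.24).

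Cd274, Cd200 and Pdcd1lg2 were not called. Cd274 was at 670 and 852 CPM, Cd200 at 591 and 589 CPM and Pdcd1lg2, which encodes PD-L2, at 268 and 225 CPM. In the immune regulation list 4 of 16 were higher and 2 lower. Pvr, a ligand of the inhibitory receptor Tigit, was higher at 64.5 and 100.1 CPM, a ratio of 1.55 (1.13 to 2.11), and 1.9 (1.31 to 2.73) without the cells that hold other markers. Tgfb1, an immunosuppressive cytokine, was higher at 56.7 and 87.6 CPM, a ratio of 1.55 (1.1 to 2.14). Axl, a receptor that binds apoptotic cells, was at 6.4 and 64.1 CPM, a ratio of 10 (5.26 to 20.4), in 13 and 41 UMIs. Arg1, which encodes arginase, was at 70.4 and 4.69 CPM, with 93 of 143 PBS UMIs in 1 cell. Aldh1a2, an enzyme that makes retinoic acid, was at 54.2 and 23.5 CPM and was not called without the cells that hold other markers (0.611).

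Cytokine receptors showed a few differences in widely expressed genes. Il7r, the receptor of Il7 and of thymic stromal lymphopoietin, was at 535 and 341 CPM, a ratio of 0.636 (0.548 to 0.737). Csf2rb, the shared beta chain for Csf2, Il3 and Il5, was at 522 and 333 CPM, a ratio of 0.638 (0.548 to 0.74), which was 0.678 and not called without the cells that hold other markers. Cish, a target of Stat5, was at 104 and 67.2 CPM. Ifngr1 was higher, at 47.3 and 159 CPM, a ratio of 3.37 (2.53 to 4.5), and 2.04 (1.21 to 3.35) without those cells. Il21r was higher at 216 and 328 CPM, and Il10rb at 33 and 67.2 CPM. The other 17 of 23 were not called, among them Il15ra at 203 and 230 CPM and Stat4 at 267 and 195 CPM.

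Fabp5 and Fabp4, fatty acid binding proteins, were lower in the UDSP-Hep members. Both lie on chromosome 3 of GRCm38, Fabp5 at 10012548 to 10016607 and Fabp4 at 10204088 to 10208576. Fabp5 was at 6178 CPM in PBS (6070 to 6287) and 2900 CPM in UDSP-Hep (2770 to 3035), a ratio of 0.469 (0.447 to 0.493), and 0.417 (0.392 to 0.444) without the cells that hold other markers. Its lowest, median and highest values per cell were 0, 45.5 and 233 UMIs per 10000 in PBS and 0, 23.2 and 132 in UDSP-Hep. Fabp5 in the cDC2 gate was at 520 and 332 CPM, a ratio of 0.638 (0.589 to 0.691), and the log2 ratio in members was 0.44 lower than there (-0.58 to -0.31). Fabp4 was at 240 and 18.8 CPM, a ratio of 0.0782 (0.0401 to 0.138). Fabp4 was at 1.54 and 1.99 CPM in the cDC2 gate, and in NK-gated cells at 1.41 and 17.7 CPM.

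**Figure D4:**
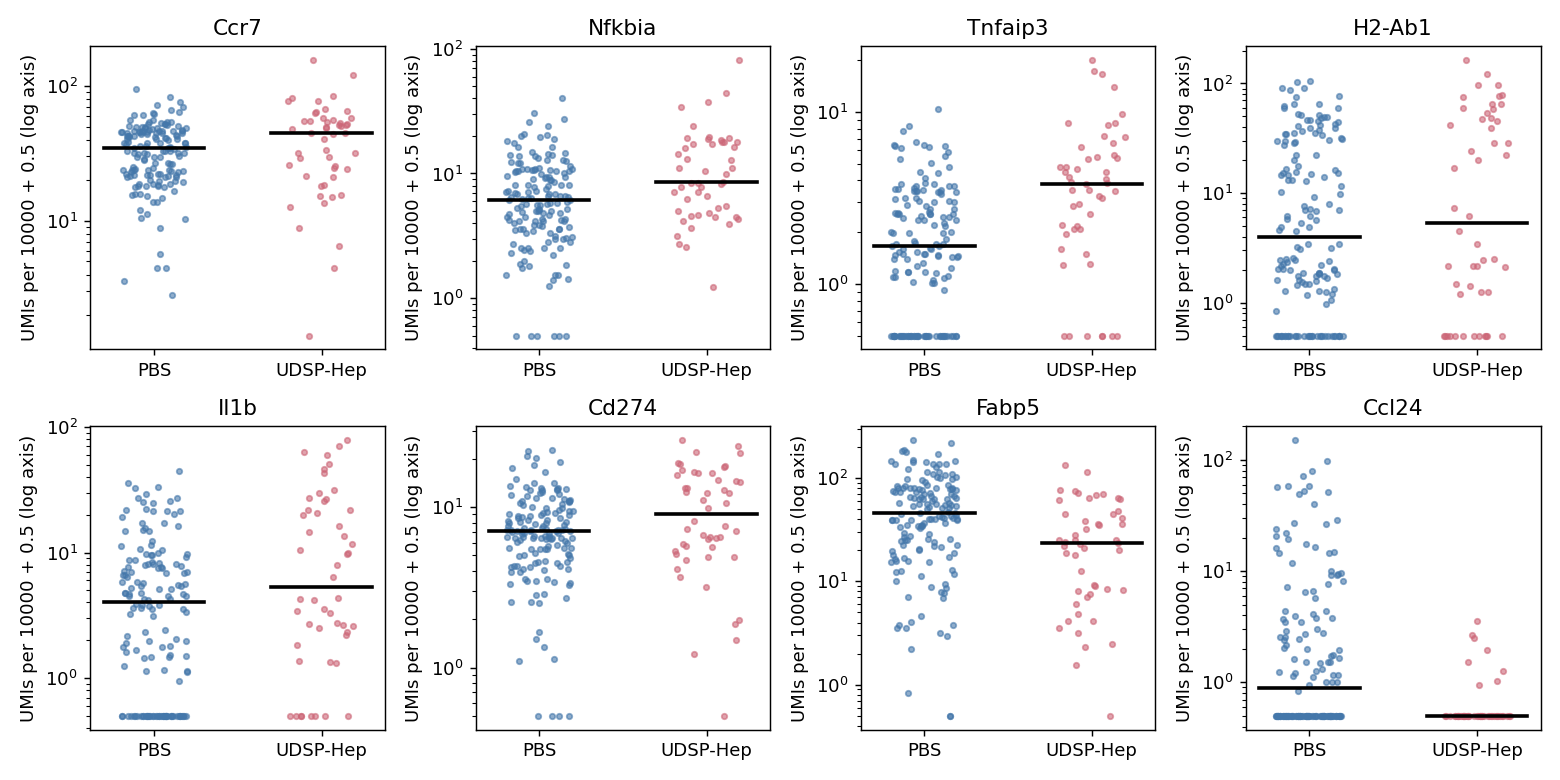
Each point is 1 member, with UMIs per 10000 plus 0.5 on a log axis for Ccr7, Nfkbia, Tnfaip3, H2-Ab1, Il1b, Cd274, Fabp5 and Ccl24 in the PBS and UDSP-Hep libraries; black bars are medians. All 8 panels overlap; the medians of Fabp5 are 45.5 and 23.2 per 10000, and UDSP-Hep values of Ccl24 reach 3.06 against 151 in PBS.

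The other genes lower in UDSP-Hep by the naming rule were of several kinds. S100a10, a partner of annexin A2, was at 444 and 192 CPM, a ratio of 0.433 (0.356 to 0.523), and 0.235 without the cells that hold other markers. Casp6, a caspase, was at 127 and 39.1 CPM, a ratio of 0.308 (0.195 to 0.464), and 0.198 (0.0973 to 0.362) without them. Dnah2, a dynein chain, was at 130 and 43.8 CPM, and Timd4, a receptor for phosphatidylserine, at 89.2 and 32.8 CPM. The ratio of Timd4 went from 0.368 (0.222 to 0.58) to 0.606 (0.352 to 0.989) without those cells. The log2 ratio of Casp6 was 1.38 lower in members than in the cDC2 gate (-1.99 to -0.76), and that of S100a10 was 0.92 lower (-1.2 to -0.63). S1pr1, a receptor for leaving tissue toward lymph and blood, had 34 UMIs in PBS and 0 in UDSP-Hep. With 3 UMIs put in place of the 0 its ratio would be 0.28, which is not an upper bound. Without the cells that hold other markers S1pr1 had 31 and 0 UMIs, with an interval of the ratio from 0 to 0.475.

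The other genes higher in UDSP-Hep by the naming rule had few UMIs. Ptgs2, which makes prostaglandins, was at 36.9 and 250 CPM, a ratio of 6.77 (5.12 to 9.03), and 5.49 without the cells that hold other markers. Thbs1 was at 45.8 and 255 CPM, and those cells held 74.2% of its UMIs in PBS and 89.6% in UDSP-Hep. Its ratio went from 5.56 (4.29 to 7.26) to 2.66 (1.34 to 5.17) without them. Il2rb was at 5.42 and 71.9 CPM, with 54.5% and 84.8% of its UMIs there, and its log2 ratio went from 3.73 to 2.40. Tpm3-rs7, a tropomyosin gene copy whose reads could be split with Tpm3, was at 7.39 and 90.7 CPM. It was also higher in the cDC2 gate, at 9.02 and 67.6 CPM. For 17 of the 20 genes named by the rule the interval of the difference in log2 ratio between members and cDC2 gate left out 0. The 20 genes were picked for extreme ratios in the members, which favours such a gap. No share over all genes is set beside it, so the count does not show differences particular to the members.

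Among migration genes 6 of 20 were called higher and 1 lower, beside 8.47% and 3.36% of all measured genes. Without the cells that hold other markers 3 of 18 were higher and 1 lower, and only 2 of the former 6 higher calls were kept. Cxcr4, a homing receptor, was at 190 and 322 CPM, a ratio of 1.69 (1.42 to 2.01), and it was not called without the cells that hold other markers (log2 ratio 0.24). Ccr2, itself one of those markers, was at 36.5 and 147 CPM, with 93.2% of its PBS and 95.7% of its UDSP-Hep UMIs in those cells. Marcks, a protein that ties actin to the membrane, was at 2756 and 2700 CPM and Myo1g at 714 and 686 CPM, and neither was called.

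**Figure D5:**
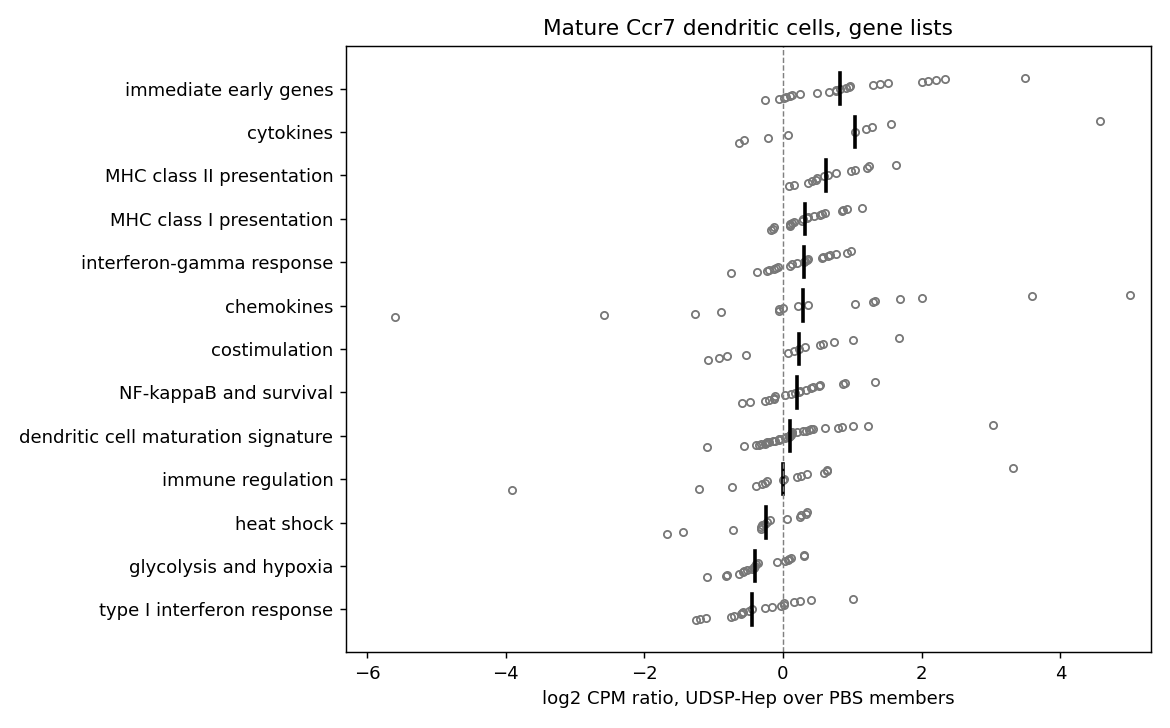
Log2 ratio of CPM in UDSP-Hep over PBS members for the measured genes of 13 lists; each circle is 1 gene, bars are medians, and Xcl1, with 0 UMIs in PBS, is drawn at the right edge. Medians run from 1.04 for cytokines and 0.83 for immediate early genes to -0.44 for the type I interferon list; the cytokine median was 0.25 without the cells that hold other markers.

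Some capture receptor and innate sensor genes were higher in UDSP-Hep. Of 17 capture receptor genes 6 were higher and 1 lower in UDSP-Hep, and 3 of 9 were higher without the cells that hold other markers. Of 12 innate sensor genes 3 were higher, and none of these 3 calls was made without those cells, where 1 other gene of 8 was higher.

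Cell cycle genes had few UMIs in the members. Of 12 measured genes 5 were higher and 0 lower, but 34 of 35 Pclaf UMIs and 33 of 36 Stmn1 UMIs in UDSP-Hep came from 1 cell, as did 28 of 29 Pclaf and 23 of 29 Stmn1 UMIs in PBS. In the lipid list Apoe, a macrophage marker, was at 29.6 and 184 CPM, with 73.3% of its PBS and 91.5% of its UDSP-Hep UMIs in cells that hold other markers. Its ratio went from 6.24 to 2.35 without them and was not called. Plin2, a coat of lipid droplets, was lower at 80.8 and 48.5 CPM, and not called without those cells (0.752). In oxidative phosphorylation 1 of 20 genes was lower, Atp5j at 216 and 133 CPM, and 0 were higher.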

How the data were processed

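Single CD45+ cells of 2 libraries were analysed, 1 per group. The deposited tables hold unnormalized UMI counts for each gene in each barcode. Cell Ranger 7.0.0, Seurat and the build mm10 are named in the submitters' processing notes. How the authors filtered barcodes is not given. UMIs were summed over the members of a library and divided by their total (CPM). CPM has exact Poisson intervals, ratios of CPM exact conditional binomial intervals, shares of cells exact Clopper-Pearson intervals and ratios of shares Katz log intervals. With 1 library per group no p-value was computed. Genes with at least 20 summed UMIs were measured.

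The cDC1 gate needed at least 2 UMIs of Xcr1 and Clec9a. The cDC2 gate needed Cd209a, 1 of Flt3, Clec10a or Mgl2, and neither Xcr1 nor Clec9a. Both shared the C1q, Cd3e and Cd79a limits of the members and held no member. The C1q phagocyte gate needed a C1q sum of 10, and the NK gate 1 UMI of Ncr1. The genes of either gate were left out of comparisons between them. Differences in log2 ratio between members and cDC2 gate have normal-approximation intervals. Scrublet as provided by scanpy 1.11.5 called 0 doublets in each library, and no cell was removed on this ground. Its median score was 0.015 in PBS members against 0.0348 in all filtered PBS cells. In UDSP-Hep it was 0.0623 in members against 0.0324 in all filtered cells. Whether doublets are more frequent among the UDSP-Hep members was not tested. As an alternative the 407 and 471 highest scores were removed, 12 and 3 of them members.

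The members and the 22 gene lists were chosen with earlier results of these data known. Genes could be named from 50 summed UMIs upward if 1 library reached 50 CPM. Mitochondrial, ribosomal, haemoglobin, immunoglobulin, T cell receptor and sex-linked genes, the genes of the rule and other-type markers were left out. The 10 highest and 10 lowest by the interval bound nearest to equality were named, and against the cDC2 gate the 15 highest and 15 lowest. Of each list, up to 4 called genes by that bound and up to 2 uncalled genes with the most UMIs were named, with other list genes as description. The interval code was tested on simulated counts. Gene names were those in the deposited files.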

Additional observations from a re-analysis of the deposited data

Results flagged for a closer look

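Some genes were called in opposite directions in the members and in the cDC2 gate of the same libraries, and the difference was not tested between animals. Tnfrsf9 had a log2 ratio of UDSP-Hep over PBS of -1.07 in members and 0.69 in the cDC2 gate. Among cell cycle genes, Top2a was at 1.30 in members and -1.91 in the cDC2 gate, Pclaf at 1.94 and -5.10, Stmn1 at 1.98 and -2.53, Rrm1 at 0.90 and -0.84, and Mcm3 at 1.56 and -1.36. For Pclaf and Stmn1 1 UDSP-Hep member held nearly all UMIs.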

How the results depend on the processing

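No paired analysis was possible because each group had 1 library, and for the same reason no library could be left out. The share ratio of 0.302 stayed between 0.257 and 0.364 except among gated dendritic cells, where it was 0.665. The counts of 655 higher and 260 lower genes became 166 and 85 with members thinned to 2000 UMIs, where fewer genes are measured, and 436 higher at a minimum of 50 UMIs. Leaving out the top cell of each gene, added after the data were seen, gave 389 and 444; it removes 1 of 154 cells in PBS and 1 of 50 in UDSP-Hep. The type I interferon median of -0.44 was -0.0928 with a C1q sum of 0, 0.0634 with the highest doublet scores removed, 0.34 without cells that hold other markers, -0.23 with members weighed the same and -0.67 when thinned; the cause was not tested. The costimulation median of 0.23 was 0.37 without cells that hold other markers and 0 when thinned, and that of immune regulation went from 0.01 to 0.17. Of 121 gene ratios followed, 15 changed sign somewhere, and the cause was not tested. With Ccr7 and Fscn1 at 2 UMIs or more, Wdfy4 was at -0.25. With doublet scores removed, Ccl7 was at 1.22, Havcr2 at 0.98, Rsad2 at 0.20, Ifi204 at 0.66 and Plin2 at 0.0805. Without cells that hold other markers, Socs3 was at -0.00267, Ccl6 at -0.0426, Tlr2 at -0.67, Rsad2 at 1.04, Ifi204 at 0.85, Ifi205 at 0.33, Sept3 at 1.91 and Ier3 at -0.43. When thinned, Socs3 was at -0.81, Ccl7 at 0.36, Il6 at 0.21 and Nlrc5 at -0.15. Without the top cell, Ccl7 was at 0.34, Sept3 at 1.08 and Top2a at -0.66. The UDSP-Hep members, with 639610 UMIs against 2029942, set the width of the intervals.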
